A study of Mus musculus with 16 samples.

Results

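The comparison set mandibular molar germs against lower incisor germs of mouse embryos at E14.5. It used 8 of the 16 samples of the series, chosen by their titles, namely mandibular molars 1 to 4 and lower incisors 1 to 4. Mandibular molars 5 to 8 and the 4 maxillary molar samples did not enter the test, and their values are given beside some genes as a description. Both groups were untreated germs of the C57Bl6 strain, and each sample was total RNA from a pool of 4 microdissected germs hybridized to 1 whole-transcript Affymetrix mouse array. Dental epithelium and mesenchyme were thus measured together, and in such bulk samples fewer cells of a type and less RNA per cell cannot be told apart. Which embryos or litters were pooled is not given in the sources used here. The study set 1 of its 4 incisor samples aside for a technical fault with high background, without naming it. All 4 were used here, so the incisor values may include that array. The p-values therefore reflect the spread among the 4 pools of a group, and that spread may in part be technical.

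Teeth form where an epithelial fold meets mesenchyme derived from the neural crest, and the layers exchange signals of the Wnt, BMP, FGF, hedgehog and ectodysplasin families. Homeobox and bHLH transcription factors are expressed in overlapping domains of the jaw mesenchyme, with the incisor field near the midline and the molar field farther back towards the jaw joint. The enamel knot, a signalling centre of the epithelium, takes part in setting the shape of the crown. The mouse incisor grows throughout life from stem cells of the cervical loop, whereas the molar crown stops growing.

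The deposited values were log2 signals, for which an increase of 1 means a doubled signal. Sample medians were 6.84 to 6.99 in the 4 lower incisors and 6.80 to 6.98 in the 4 mandibular molars. Of 35556 probe sets, 29100 were above 5 in at least 1 of the 8 samples and were tested, and the other 6456 were left out. The kept probe set nearest to that limit reached 5.0002 in its highest sample and the nearest one left out 4.9997. Samples numbered 4 stood apart in both groups. On the first principal component, which held 41.0% of the variance, lower incisor 4 lay at 33.12 and mandibular molar 4 at 49.73, while the other 6 samples lay between -30.03 and -0.23. The second component, with 21.3%, parted the tooth types, with incisors at -24.95 to -9.73 and molars at 7.26 to 27.98.

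**Figure D1:**
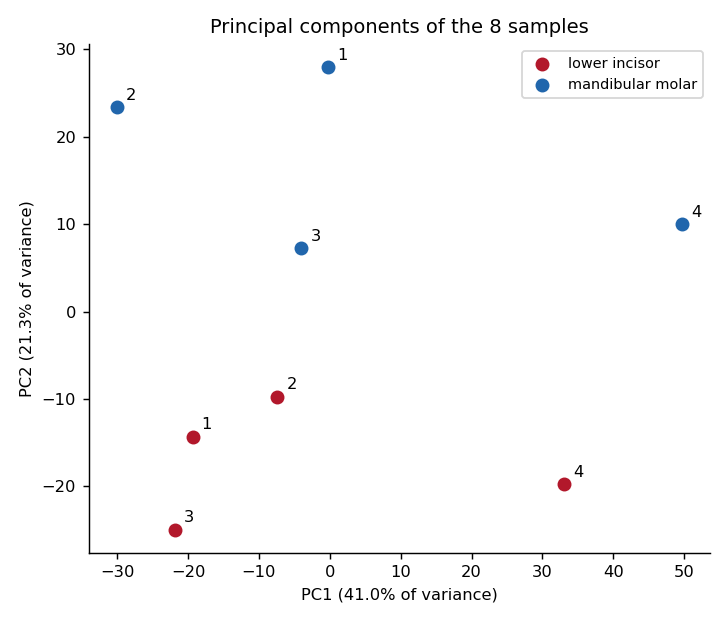
Scores of the 8 compared samples on the first (x axis, 41.0% of the variance) and second (y axis, 21.3%) principal components of the centred log2 signals, 1 point per sample, labelled with the sample number and coloured by tooth type. Samples numbered 4 lie to the right, and mandibular molars lie above lower incisors.

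Differences below are means of mandibular molars 1 to 4 minus means of lower incisors on the log2 scale, with the standard error (SE) from limma, so that a negative value means a higher signal in incisors. By this test, the molars had the higher signal in 70 probe sets and the incisors in 60 at an adjusted p under 0.1 and a fold change above 2, which is 0.241% and 0.206% of those tested. At a fold change above 1.2, the threshold used below for gene lists, the counts were 276 (0.948%) and 242 (0.832%). The sides were thus nearly equal in number, but the incisor side reached larger differences, with a largest fold change of 30.3 against 8.10 and medians of 2.52 on both sides. All probe sets past the threshold of 2 were without overlap between the 4 molar and the 4 incisor samples. Among all probe sets tested, 859 were without overlap and higher in molars, and 904 were without overlap and higher in incisors. Selection by adjusted p and fold change favours probe sets without overlap, so the lack of overlap is not separate evidence for the calls. The counts at 1.2 rested in part on single samples. They were 162 and 135 without lower incisor 1, 184 and 135 without mandibular molar 1, and 181 and 157 without mandibular molar 3. Without both samples numbered 4 they were 181 and 167. By gene, with 1 probe set each from the same test, 1.42% of 17264 were higher in molars and 1.29% in incisors above 1.2. Counts in the gene lists below are to be read beside these shares. The lists were chosen with earlier results of these data known, so a count above these shares is a description only. Taking 1 probe set per gene, 63 genes lay above the threshold of 2 on the molar side and 56 on the incisor side. Of these 119 genes, 92 passed an adjusted p under 0.1 and the lower fold change of 1.2 whichever sample was left out. By the same lower threshold, 104 passed without both samples numbered 4. Of the genes described below with a call at a fold change above 1.2, some lost it without both samples numbered 4. They are given with that adjusted p where they are described, or are *Adamts15*, *C1ql3*, *Cacna2d2*, *Ccnd2*, *Chrng*, *Cma1*, *Col3a1*, *Col9a1*, *Col9a2*, *Eya2*, *Fgf12*, *Gdf6*, *Gdnf*, *Grin2a*, *Igfbp4*, *Kera*, *Lox*, *Lrrtm4*, *Meis2*, *Mmp16*, *Nefm*, *Nrg3*, *Pcdh19*, *Pitx1*, *Rgma*, *Sema3c*, *Sema5b*, *Slit2*, *Sox6*, *Sulf1*, *Tpsb2*, *Tshz2* and *Wnt11* (adjusted p 0.101 to 0.255 without both). Genes not described below also lost such calls and are not listed.

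**Figure D2:**
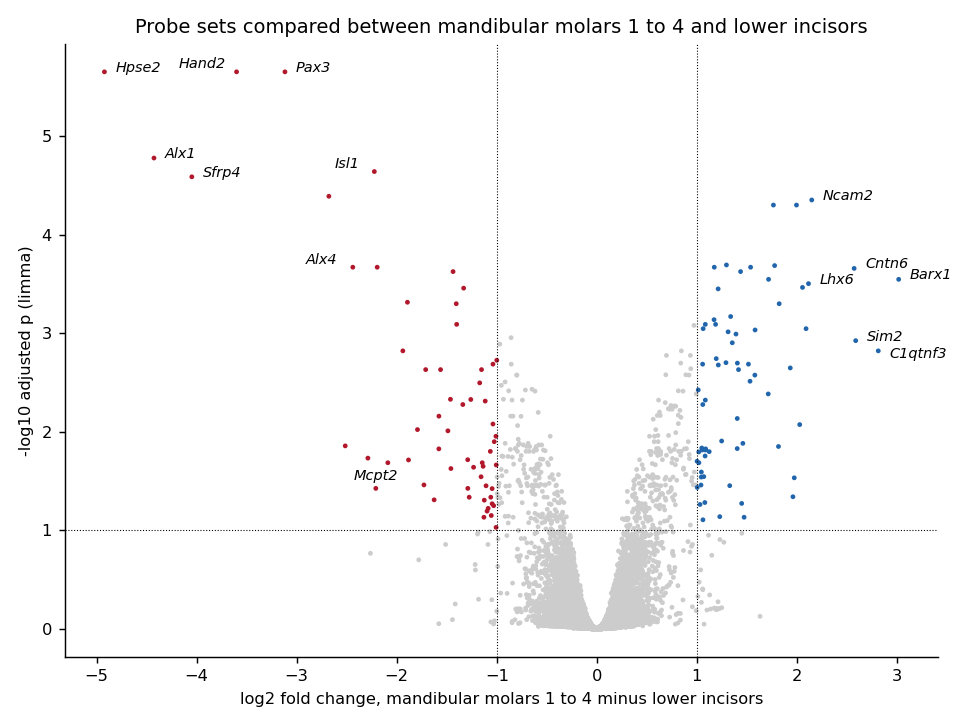
Log2 fold change (x axis, mandibular molars 1 to 4 minus lower incisors) against -log10 of the adjusted p (y axis) for the 29100 probe sets tested. Blue points are the 70 probe sets higher in molars and red points the 60 higher in incisors, dotted lines mark the thresholds, and *Hpse2*, *Alx1*, *Sfrp4*, *Hand2* and *Pax3* lie farthest to the left.

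Among probe sets without a single gene symbol, 3 were higher in molars and 3 in incisors. The largest difference among them on the incisor side was that of probe set 10495218, with a mean log2 signal of 6.91 in molars and 9.58 in incisors. On the molar side it was that of probe set 10385297, with 8.22 and 6.40. The genes behind them are not named here. Of 182 probe sets of miRNA genes, none passed with limma, and 3 had an unadjusted p under 0.05.

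Promoters are shown for the genes with the largest difference on either side, *Hpse2* and *Barx1*, and for *Hand2* and *C1qtnf3*, a transcription factor gene and a gene of a secreted protein among the next largest. Each sequence is the stretch directly before the transcription start, 5′ to 3′ on the gene's own strand, in the assembly GRCm38.p6. Capitals mark the letters TAATTA, a core bound by many homeodomain proteins, and TATAAA, the core letters of TATA boxes, whatever their position.
Hand2 at chr8:57320733-57320982, plus strand: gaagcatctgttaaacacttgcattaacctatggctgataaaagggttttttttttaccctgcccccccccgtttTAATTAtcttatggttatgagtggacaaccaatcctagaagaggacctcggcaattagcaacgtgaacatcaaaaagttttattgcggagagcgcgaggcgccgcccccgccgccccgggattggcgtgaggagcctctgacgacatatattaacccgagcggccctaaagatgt
Hpse2 at chr19:43388356-43388605, minus strand: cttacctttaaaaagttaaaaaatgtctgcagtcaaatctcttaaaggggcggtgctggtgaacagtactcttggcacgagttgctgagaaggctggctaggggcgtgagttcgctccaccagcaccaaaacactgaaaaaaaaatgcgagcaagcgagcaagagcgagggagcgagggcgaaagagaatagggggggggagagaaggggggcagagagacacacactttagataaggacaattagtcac
Barx1 at chr13:48662786-48663035, plus strand: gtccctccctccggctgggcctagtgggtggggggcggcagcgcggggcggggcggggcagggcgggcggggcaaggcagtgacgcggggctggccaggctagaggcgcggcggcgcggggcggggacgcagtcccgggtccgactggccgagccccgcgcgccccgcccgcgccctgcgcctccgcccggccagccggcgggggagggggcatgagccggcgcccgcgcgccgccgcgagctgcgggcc
C1qtnf3 at chr15:10952082-10952331, plus strand: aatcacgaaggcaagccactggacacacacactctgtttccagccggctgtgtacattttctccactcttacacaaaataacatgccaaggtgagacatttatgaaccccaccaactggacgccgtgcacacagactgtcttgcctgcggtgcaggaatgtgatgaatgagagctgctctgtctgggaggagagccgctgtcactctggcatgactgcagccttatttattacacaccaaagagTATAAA
The *Hand2* stretch holds 1 TAATTA, and that of *C1qtnf3* ends in TATAAA, while those of *Hpse2* and *Barx1* hold neither. The stretches of *Isl1*, *Six2*, *Cntn6* and *Sox2* were also read, are not shown, and hold neither. The GC content was 85.6% for *Barx1* against 49.2% for both *Hand2* and *C1qtnf3*. RefSeq promoters were found for 47 of the 63 molar genes, which gave 61 stretches, and for 39 of the 56 incisor genes, which gave 44. Searched on both strands, TAATTA was present in 4.92% of the molar stretches, in 6.82% of the incisor stretches and in 4.84% of all 32851 promoters. The corresponding shares were 9.84%, 15.9% and 12.4% for TATAAA, 57.4%, 65.9% and 66.2% for CANNTG, the E-box of bHLH proteins, and 6.56%, 4.55% and 14.02% for AGGTCA, a core of nuclear receptor sites. These are matches of letters only, in stretches that partly belong to the same gene.

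The largest differences towards the incisor were in genes of transcription factors of the facial mesenchyme and in a pair of secreted proteins. *Alx1*, an aristaless-like homeobox gene, had log2 signals of 11.58, 10.99, 11.05 and 11.70 in lower incisors 1 to 4 and of 7.00, 6.66, 6.99 and 6.96 in mandibular molars 1 to 4 (difference -4.43, SE 0.17, adjusted p = 1.67e-05). Every incisor sample was far above every molar sample, and in maxillary molars, which were not tested, the mean of 8.60 lay above the range of 6.71 to 7.21 in mandibular molars 5 to 8. *Alx4*, its paralogue, had 10.04, 9.71, 9.85 and 10.31 in incisors against 7.37, 7.85, 7.38 and 7.56 in molars (difference -2.44, SE 0.15, adjusted p = 0.000214). Of the 5 Alx and Prrx genes tested, these were the 2 higher in incisors at a fold change above 1.2, which 1.29% of all genes tested were, while *Shox2*, a short stature homeobox gene, was higher in molars (difference 1.72, SE 0.11, adjusted p = 0.000284). *Prrx1* and *Prrx2*, paired-related factors of the same mesenchyme, did not pass, with differences of 0.03 (SE 0.07) and -0.09 (SE 0.16).

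*Hand2*, a bHLH gene of the distal part of the mandibular arch (probe set 10571860), had 10.47, 10.09, 10.44 and 10.30 in the 4 incisors and 6.63, 6.79, 6.66 and 6.83 in the 4 molars (difference -3.60, SE 0.10, adjusted p = 2.23e-06). Its spread within either group was at most 0.17 (SD, n = 4), small against the difference of 3.60. *Hand1*, which encodes a related factor, was also higher in incisors, with 7.62, 7.11, 7.36 and 8.06 against 6.40, 6.44, 6.31 and 6.46 (difference -1.14, SE 0.18, adjusted p = 0.0224). *Pax3*, a paired box gene of the neural crest, had 10.30, 10.29, 10.21 and 10.45 in incisors and 7.36, 7.00, 7.22 and 7.20 in molars 1 to 4 (difference -3.12, SE 0.09, adjusted p = 2.23e-06). Its signal was lower still in mandibular molars 5 to 8, at 6.10 to 6.12, and in maxillary molars, at 6.06 to 6.20. *Isl1*, a LIM factor gene known from the epithelium of incisors, had 8.47, 8.48, 8.51 and 8.69 against 6.39, 6.08, 6.38 and 6.39 (difference -2.22, SE 0.09, adjusted p = 2.29e-05).

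Other homeobox genes of the jaws were found on both sides. Of 36 tested 5 were higher in incisors and 2 in molars, against 1.29% and 1.42% of all genes. *Emx2* had 7.80, 6.83, 8.51 and 8.31 in incisors and 5.61, 5.87, 5.71 and 5.90 in molars (difference -2.09, SE 0.32, adjusted p = 0.0206), and lower incisor 2 lay between the molars and the other 3 incisors. *Irx4* (-1.71), *Tlx1* (-1.33) and *Otx1* (-0.86) were higher in incisors whichever sample was left out. The fifth, *Tshz2* (-0.34), a zinc finger homeobox gene named here after its values were seen, lost its call with any sample left out (adjusted p up to 0.248). The 2 higher in molars were *Pitx1* (0.74), a gene of the mandibular and dental fields, and *Meis2* (0.63), a TALE homeobox gene. *Pitx1* lost its call without lower incisor 3, mandibular molar 1 or mandibular molar 3 (adjusted p up to 0.123). *Meis2* lost it without lower incisor 1, 3 or 4 or mandibular molar 1 or 3 (adjusted p up to 0.183). Of 33 Hox genes tested, which are largely silent in the first branchial arch, none passed with limma, 0 were higher in molars and 3 in incisors at an unadjusted p under 0.05, and *Hoxb3* had means of 7.36 in molars and 7.33 in incisors.

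On the molar side the largest difference was that of *Barx1*, which marks the mesenchyme of the molar field (probe set 10404982). Its signals were 11.21, 11.44, 11.10 and 11.31 in mandibular molars 1 to 4 and 8.01, 8.91, 7.99 and 8.08 in lower incisors 1 to 4 (difference 3.02, SE 0.20, adjusted p = 0.000284). Lower incisor 2 was above the other 3 incisors but still over 2 units below the lowest molar. *Dlx1*, a distal-less gene of the proximal jaw, had 9.82, 9.98, 10.01 and 9.98 in molars and 8.31, 8.64, 8.43 and 8.84 in incisors (difference 1.39, SE 0.12, adjusted p = 0.00102). No other of the 11 Dlx, Barx and Msx genes tested passed, among them *Dlx5* (0.04, SE 0.21) and *Msx1* (0.11, SE 0.13). *Lhx6*, a LIM-homeobox gene of the oral mesenchyme, had 9.72, 9.81, 10.13 and 10.21 against 7.65, 8.10, 7.70 and 7.96 (difference 2.12, SE 0.14, adjusted p = 0.000314). It lay opposite to *Isl1*, the only other of 17 LIM genes and cofactors tested that passed.

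*Six2*, a homeobox gene of craniofacial mesenchyme, had 10.19, 10.49, 10.46 and 10.70 in molars and 8.65, 8.08, 7.88 and 9.13 in incisors (difference 2.03, SE 0.26, adjusted p = 0.00845). The incisors ranged over more than 1 unit, and the highest, lower incisor 4, was still 1 unit below the lowest molar. *Dach1*, a partner gene of this network of factors, was higher in molars (difference 1.17, SE 0.09, adjusted p = 0.000729), while *Eya2*, an Eya phosphatase gene, was higher in incisors (-0.48) and kept its call only without lower incisor 2 or 3 (adjusted p up to 0.225 without another sample). *Pax9*, which tooth development needs in the mesenchyme, had 10.71, 10.70, 10.92 and 10.96 against 9.64, 9.82, 9.25 and 10.08 (difference 1.12, SE 0.16, adjusted p = 0.0159). *Tfap2b*, an AP-2 factor of the neural crest, had 9.90, 10.28, 10.43 and 10.39 against 8.49, 7.60, 9.23 and 7.78 (difference 1.97, SE 0.33, adjusted p = 0.0293). The incisors varied more than the molars, and its call was lost without mandibular molar 3 (adjusted p = 0.104) and without both samples numbered 4 (adjusted p = 0.142). *Sim2*, a bHLH-PAS gene, had 9.07, 9.46, 8.42 and 8.42 in molars and 6.29, 6.25, 6.34 and 6.14 in incisors (difference 2.59, SE 0.22, adjusted p = 0.00119). Here the molars were the more variable group, and *Npas3*, of the same family, was also higher in them (difference 0.81, SE 0.09, adjusted p = 0.00384).

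**Figure D3:**
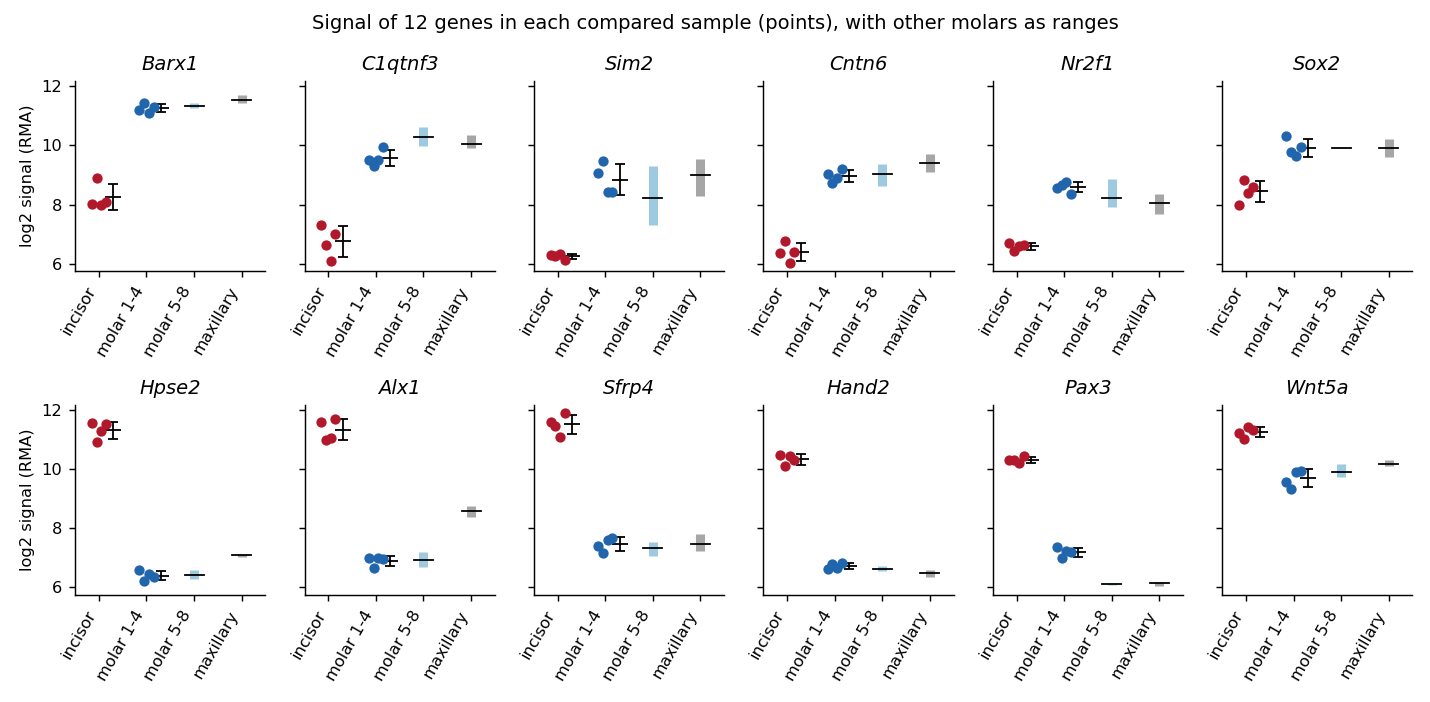
Log2 signal (y axis) of 12 genes in lower incisors (red points) and mandibular molars 1 to 4 (blue points), 1 point per sample, with a bar for the mean and its SD, and the range and mean of mandibular molars 5 to 8 (light blue) and maxillary molars (grey). The 6 genes in the upper row are higher in every molar sample 1 to 4 than in any incisor, and the 6 in the lower row are lower in every one. *Alx1* has a mean of 8.60 in maxillary molars.

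Genes of retinoic acid metabolism and of nuclear receptors differed in both directions. Of 27 tested 4 were higher in molars and 3 in incisors, against 1.42% and 1.29% of all genes. *Nr2f1* and *Nr2f2*, which encode COUP transcription factors, were higher in molars. Signals of *Nr2f1* were 8.56, 8.67, 8.76 and 8.37 in molars and 6.70, 6.43, 6.62 and 6.63 in incisors (difference 2.00, SE 0.10, adjusted p = 5.01e-05), and those of *Nr2f2* were 10.46, 10.24, 10.49 and 10.42 and 8.80, 9.11, 9.12 and 9.23 (difference 1.34, SE 0.10, adjusted p = 0.000677). *Cyp1b1*, whose enzyme can oxidize retinoids, was higher in molars as well (difference 1.93, SE 0.19, adjusted p = 0.00225). *Aldh1a2*, a retinoic acid synthesizing enzyme gene, had 8.98, 9.53, 8.70 and 9.34 in molars and 8.04, 8.29, 7.58 and 8.41 in incisors, with a wide spread in both groups (difference 1.06). It kept its call only without lower incisor 4 or mandibular molar 3, and had an adjusted p of 0.163 without both samples numbered 4. *Cyp26c1*, which encodes a retinoic acid degrading enzyme, had the opposite direction, with 9.11, 9.13, 8.97 and 9.49 in incisors and 7.16, 7.06, 7.52 and 7.39 in molars (difference -1.89, SE 0.14, adjusted p = 0.000485). In maxillary molars its signal of 9.38 to 9.75 overlapped the range of the incisors, whereas mandibular molars 5 to 8 had 7.39 to 7.73. *Crabp1*, a retinoic acid binding protein gene, was higher in incisors (difference -0.80, SE 0.08, adjusted p = 0.00266), as was the orphan receptor gene *Nr4a2* (difference -0.76, SE 0.11, adjusted p = 0.0174), which was named after its values were seen. The receptor genes *Rarg* and *Rxra* did not pass (-0.04 and 0.07, SE 0.09 and 0.09).

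Wnt ligands and their secreted antagonists formed a mixed pattern. *Wnt5a*, a non-canonical ligand gene, had 11.22, 11.02, 11.44 and 11.31 in incisors and 9.56, 9.31, 9.91 and 9.95 in molars (difference -1.56, SE 0.16, adjusted p = 0.00234). *Wnt11* (-0.41) was the only other of 22 ligands and R-spondins tested that passed, none being higher in molars, and it kept its call only without lower incisor 1 or 4 (adjusted p up to 0.194). *Ror1*, a receptor tyrosine kinase gene for Wnt5a, was higher in molars, with 10.66, 10.54, 10.76 and 10.71 against 9.54, 9.51, 9.38 and 9.54 (difference 1.17, SE 0.07, adjusted p = 0.000214). It was the only one of 31 Wnt receptors and targets to pass, while *Lgr5* (0.35, SE 0.20) and *Fzd2* (0.02, SE 0.13) did not. The antagonist gene *Sfrp4* had 11.60, 11.46, 11.10 and 11.88 in incisors and 7.38, 7.17, 7.61 and 7.69 in molars (difference -4.05, SE 0.18, adjusted p = 2.59e-05), and *Wif1* was also higher in incisors (-0.88). *Sfrp2* and *Sfrp1*, paralogues of *Sfrp4*, went the other way. *Sfrp2* had 12.37, 12.46, 12.41 and 12.39 in molars against 11.38, 11.54, 11.31 and 11.66 in incisors (difference 0.94, SE 0.09, adjusted p = 0.00168), and *Sfrp1* had 11.01, 11.02, 11.16 and 11.44 against 9.85, 10.07, 8.79 and 10.14 (difference 1.45, SE 0.28, adjusted p = 0.0533). *Wif1* lost its call without lower incisor 1 or 2 or mandibular molar 1 or 3 (adjusted p up to 0.131). *Sfrp1* lost it without lower incisor 1 or any molar (adjusted p up to 0.148), and without both samples numbered 4 (adjusted p = 0.115).

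BMP ligands that passed were all higher in incisors, 4 of the 23 BMP, GDF and activin genes tested, against 1.29% of all genes. *Bmp5* had 9.28, 8.59, 8.54 and 9.28 in incisors and 7.22, 7.55, 7.56 and 7.41 in molars (difference -1.49, SE 0.19, adjusted p = 0.00978), *Bmp3* had a difference of -0.81 (SE 0.12) and *Gdf10* one of -0.73 (SE 0.10). *Gdf6* (-0.56) lost its call without lower incisor 1 or mandibular molar 1 or 3 (adjusted p up to 0.122). *Bmp4*, the leading BMP of the dental mesenchyme, did not pass (-0.29, SE 0.16). Extracellular modulators lay on both sides. *Smoc2*, a secreted calcium-binding protein gene, had 10.28, 10.43, 10.17 and 10.19 in molars and 8.66, 8.92, 8.56 and 8.77 in incisors (difference 1.54, SE 0.10, adjusted p = 0.000214), and *Bmper*, a BMP-binding protein gene, was higher in molars too (difference 1.21, SE 0.12, adjusted p = 0.0021). *Smoc1* (-0.85) and the pseudoreceptor gene *Bambi* (-0.80) were higher in incisors, *Smoc1* with an adjusted p of 0.102 without both samples numbered 4. None of 18 BMP and TGF-beta receptor and Smad genes passed with limma, and at an unadjusted p under 0.05 there was 1 in each direction.

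FGF genes that passed were all higher in molars. They were 3 of 22 Fgf family members, not all secreted, and 2 of 19 receptors and feedback genes, against 1.42% of all genes. *Fgf20*, a ligand of the enamel knot, had 8.11, 8.07, 8.38 and 8.26 in molars and 6.90, 6.81, 7.14 and 7.19 in incisors (difference 1.19, SE 0.11, adjusted p = 0.00181), and it was the only one of 17 enamel knot genes to pass. *Fgf14* (0.75, SE 0.09) and *Fgf12* (0.76, SE 0.13) encode factors that stay in the cell, and *Fgf12* lost its call without mandibular molar 1 (adjusted p = 0.101). *Dusp6*, a phosphatase gene induced by FGF signalling, had 10.63, 10.47, 10.77 and 11.14 in molars against 9.92, 9.81, 9.69 and 10.06 in incisors (difference 0.89, SE 0.15, adjusted p = 0.0272). The inhibitor gene *Spry1* was higher in molars as well (difference 0.56, SE 0.10, adjusted p = 0.0346), with an adjusted p of 0.159 without both samples numbered 4. *Fgf10* (-0.01, SE 0.06) and *Fgfr2* (-0.04, SE 0.08) did not pass.

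Of 15 hedgehog genes 2 passed, and both were lower in mandibular molars 1 to 4 than in incisors, as 1.29% of all genes were. *Gli1*, a transcription factor gene that the pathway induces, had 9.69, 9.60, 9.89 and 9.70 in incisors and 9.21, 9.21, 9.17 and 9.22 in molars (difference -0.52, SE 0.07, adjusted p = 0.0156). *Hhip*, a hedgehog-binding antagonist gene, had 8.93, 8.41, 8.72 and 9.24 and 7.93, 7.62, 7.65 and 8.12 (difference -1.0, SE 0.18, adjusted p = 0.0424) and lost its call without lower incisor 1 or 3 or mandibular molar 1, 2 or 3 (adjusted p up to 0.147). For both genes the molars that did not enter the test lay elsewhere. *Gli1* had 9.76 to 10.02 in mandibular molars 5 to 8 and 9.97 to 10.08 in maxillary molars, at or above the incisors, and *Hhip* had means of 8.68 and 9.14. *Ptch1*, the receptor gene, did not pass (-0.45, SE 0.13). Of 21 Notch genes only *Hey2*, a target gene, passed, with 9.15, 8.39, 9.35 and 9.03 in incisors and 7.46, 7.05, 7.75 and 7.83 in molars (difference -1.46, SE 0.23, adjusted p = 0.0236). None of 13 ectodysplasin and NF-kB genes passed with limma, 5 were higher in molars and 1 in incisors at an unadjusted p under 0.05, and their median difference was 0.16 against 0.0013 over all 17264 genes tested.

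Genes known from the stem cell niche of the incisor cervical loop passed on both sides. Of 18 tested 2 were higher in incisors and 2 in molars, against 1.29% and 1.42% of all genes. *Sox2*, a gene of dental epithelial stem cells, had 10.32, 9.77, 9.63 and 9.94 in molars and 8.00, 8.84, 8.38 and 8.60 in incisors (difference 1.46, SE 0.20, adjusted p = 0.0131). The lowest molar was 0.79 above the highest incisor. *Grp*, the gene of gastrin-releasing peptide, was also higher in molars (difference 1.01, SE 0.11, adjusted p = 0.00376). *Foxd1*, a forkhead gene, had 8.12, 7.81, 7.84 and 8.55 in incisors and 6.82, 7.27, 6.68 and 6.63 in molars (difference -1.23, SE 0.20, adjusted p = 0.0229), and *Gli1* was the other member higher in incisors. *Runx3* (-1.05) and *Foxf2* (-0.89) were higher in incisors, but *Runx3* kept its call only without lower incisor 2 or 4 or mandibular molar 4 and *Foxf2* only without lower incisor 3 or 4 or mandibular molar 4 (adjusted p up to 0.172 and 0.27). With *Foxd1* they made up the 3 genes higher in incisors among 32 Sox, forkhead, Osr and Runx factors, against 1.29% of all genes.

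Enzymes and inhibitors of the heparan sulfate and hyaluronan matrix included the largest fold change of the comparison. *Hpse2*, which encodes heparanase 2, a protein that binds heparan sulfate (probe set 10467826), had 11.55, 10.92, 11.28 and 11.52 in incisors and 6.57, 6.22, 6.45 and 6.34 in molars (difference -4.92, SE 0.15, adjusted p = 2.23e-06), or a fold change of 30.3. *Has2*, a hyaluronan synthase gene, was higher in molars, with 10.20, 10.26, 10.42 and 10.30 against 8.84, 8.59, 8.39 and 9.01 (difference 1.58, SE 0.13, adjusted p = 0.000927). Of 44 genes of both pathways, *Has2* was the only one higher in molars and 3 were higher in incisors, against 1.42% and 1.29% of all genes. Besides *Hpse2* these were *Hs3st2* (-0.86), a sulfotransferase gene, and *Sulf1* (-0.50), a sulfatase gene that kept its call only without lower incisor 3 (adjusted p up to 0.235). *Gpc3*, a glypican gene, did not pass (-0.20, SE 0.07).

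Of 47 mesenchymal matrix proteins 4 were higher in molars and 2 in incisors, against 1.42% and 1.29% of all genes. *Itgbl1*, which encodes an integrin beta-like secreted protein, had 7.84, 7.96, 7.93 and 8.00 in molars and 6.10, 6.18, 6.02 and 6.38 in incisors (difference 1.77, SE 0.09, adjusted p = 5.01e-05). The others were *Smoc2*, *Kera* (1.23) and *Lox* (0.63) in molars and *Spon1* (-0.95) and *Smoc1* in incisors. *Kera*, a keratocan gene, kept its call without 1 sample only, and *Lox*, which encodes a collagen cross-linking enzyme, without either of 2 (adjusted p up to 0.225 and 0.176). *C1qtnf3*, for a secreted protein with a C1q domain (probe set 10423080), had 9.52, 9.31, 9.50 and 9.95 against 7.30, 6.63, 6.08 and 7.02 (difference 2.81, SE 0.25, adjusted p = 0.00151), and the incisors varied more than the molars. It was 1 of 2 higher in molars among 17 C1q and TNF-related genes, the other being *C1ql3* (0.36, adjusted p up to 0.131 with a sample left out). *Prg4*, the lubricin gene, was higher in incisors, with 7.15, 6.28, 6.55 and 7.92 against 5.35, 5.28, 5.34 and 5.43 (difference -1.63, SE 0.31, adjusted p = 0.049). It lost its call without lower incisor 1 or any molar (adjusted p up to 0.165). Of 35 proteases and inhibitors 6 were higher in incisors and 2 in molars, against 1.29% and 1.42% of all genes. *Adamts5* (difference -1.17, SE 0.12, adjusted p = 0.00319) and *Adamts16* (difference -0.93, SE 0.11, adjusted p = 0.00468) encode secreted metalloproteases, and both were higher in incisors whichever sample was left out. The 2 higher in molars were *Mmp16* (0.53, adjusted p up to 0.2 with a sample left out) and *Adamts15* (0.46, up to 0.101), the latter named after its values were seen. *Dpep1*, a membrane dipeptidase gene, had 8.31, 8.29, 7.91 and 8.56 in incisors and 6.04, 5.98, 6.01 and 6.26 in molars (difference -2.20, SE 0.13, adjusted p = 0.000214). Among 38 collagens, *Col9a1* (-0.92) and *Col3a1* (-0.35) were higher in incisors and none in molars. Without lower incisor 2, *Col9a1* had its lowest adjusted p of 0.0265 and it passed in no other omission, and *Col3a1* passed only without mandibular molar 2 (adjusted p up to 0.209).

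Of 42 neural adhesion genes tested, 11 were higher in molars and 2 in incisors, against 1.42% and 1.29% of all genes tested. With a sample left out the molar count was 9 to 11. The list was chosen with earlier results of these data known, so its share is a description and not a test. *Cntn6*, a contactin gene, had 9.02, 8.73, 8.90 and 9.21 in molars and 6.36, 6.78, 6.03 and 6.40 in incisors (difference 2.57, SE 0.16, adjusted p = 0.00022). *Ncam2*, a neural cell adhesion molecule gene, had 7.85, 8.03, 7.73 and 7.61 and 5.67, 5.79, 5.53 and 5.64 (difference 2.15, SE 0.10, adjusted p = 4.45e-05). *Tenm1*, a teneurin gene, had 7.58, 7.67, 7.73 and 7.77 and 5.68, 6.17, 5.84 and 5.94 (difference 1.78, SE 0.11, adjusted p = 0.000206). *Lrrtm1* (difference 1.52, SE 0.15, adjusted p = 0.00206) and *Cntn4* (difference 1.40, SE 0.17, adjusted p = 0.00733) also encode adhesion molecules of synapses or axons. On the incisor side *Slitrk6* had 9.05, 8.50, 8.29 and 8.72 against 7.49, 7.18, 7.28 and 7.27 (difference -1.34, SE 0.16, adjusted p = 0.00529), and *Lrrtm4* (-0.68), named after its values were seen, kept its call only without lower incisor 3 or mandibular molar 3 (adjusted p up to 0.248). *Ncam1* did not pass (-0.33, SE 0.08). The list's median of 0.06 was close to that of all genes.

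Receptor subunits for glutamate and GABA also passed only towards molars, 7 of 27 tested against 1.42% of all genes, with a median difference of 0.26. *Gria1*, an AMPA receptor subunit gene, had 8.03, 8.50, 8.21 and 8.45 in molars and 6.64, 6.92, 6.34 and 6.96 in incisors (difference 1.58, SE 0.16, adjusted p = 0.00266). *Gria4* (difference 0.79, SE 0.11, adjusted p = 0.0136), *Gabra2* (difference 0.80, SE 0.12, adjusted p = 0.0192) and *Gabrb2* (difference 0.61, SE 0.10, adjusted p = 0.0291) passed whichever sample was left out. *Grin2a*, an NMDA receptor subunit gene, had 6.98, 7.68, 6.75 and 6.98 against 5.93, 6.25, 6.22 and 5.69 (difference 1.08) and lost its call without lower incisor 1, 3 or 4 or mandibular molar 1 (adjusted p up to 0.172). The count was 5 without lower incisor 1, lower incisor 3 or mandibular molar 1. This list of receptor subunits, too, was chosen with earlier results of these data known. *Adcy8*, a calcium-stimulated adenylyl cyclase gene, had 8.07, 7.90, 7.69 and 8.36 in molars and 5.77, 6.11, 5.94 and 5.97 in incisors (difference 2.06, SE 0.14, adjusted p = 0.000343), and it belonged to 6 of 42 cyclic AMP, kinase C and RGS genes higher in molars, against 3 in incisors, namely *Prkcq* (-0.92), *Rgs7* (-0.60) and *Adcy1* (-0.59). The molar count was 3 without mandibular molar 3 and 4 without lower incisor 3 or mandibular molar 4. Over all genes the shares were 1.42% in molars and 1.29% in incisors.

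Of 52 calcium and potassium channel subunit genes tested 5 were higher in incisors and 3 in molars, against 1.29% and 1.42% of all genes. *Cacna2d3*, an auxiliary calcium channel subunit gene, had 9.18, 8.98, 9.57 and 8.74 in incisors and 7.37, 6.91, 7.25 and 7.19 in molars (difference -1.94, SE 0.17, adjusted p = 0.00151), and *Cacna1d*, a pore-forming subunit gene, had 8.93, 8.99, 8.79 and 8.68 and 7.26, 7.54, 7.47 and 7.37 (difference -1.44, SE 0.09, adjusted p = 0.000237). *Kcnj3*, an inwardly rectifying potassium channel gene, was higher in molars (difference 1.08, SE 0.09, adjusted p = 0.000813), as were *Kcnt2* (0.93) and *Kcna4* (0.81). The other 3 higher in incisors were *Kcna1* (-0.95), *Kcnh5* (-0.53) and *Cacna2d2* (-0.47), of which the last 2 were named after their values were seen and *Cacna2d2* had an adjusted p of up to 0.104 with a sample left out. Guidance genes were split, with 5 of 60 higher in molars and 4 in incisors, against 1.42% and 1.29% of all genes. The netrin receptor genes *Dcc* and *Unc5c* passed in opposite directions. *Dcc* had 7.98, 8.07, 8.26 and 8.08 in molars and 6.77, 7.02, 6.83 and 6.92 in incisors (difference 1.21, SE 0.09, adjusted p = 0.000355), and *Unc5c* had 8.57, 8.62, 8.91 and 8.86 in molars and 10.37, 10.02, 10.02 and 10.17 in incisors (difference -1.40, SE 0.11, adjusted p = 0.000813). *Ntn1*, the gene of the ligand netrin 1, was higher in molars (difference 0.75, SE 0.12, adjusted p = 0.0206). *Nrp1*, a semaphorin receptor gene (difference -0.58, SE 0.08, adjusted p = 0.0136), and *Reln*, the reelin gene (difference -0.85, SE 0.10, adjusted p = 0.00477), were higher in incisors, and *Slit2*, a repellent ligand gene (0.68), in molars with an adjusted p of 0.101 without mandibular molar 3. The other 3, *Sema5b* (0.45), *Rgma* (0.37) and *Sema3c* (-0.45), were named after their values were seen and had adjusted p values up to 0.124, 0.293 and 0.225. The molar count was 2 without mandibular molar 3 and 3 without lower incisor 1.

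Among 28 cadherins 3 were higher in incisors and 2 in molars, against 1.29% and 1.42% of all genes. *Cdh6* had 9.82, 9.48, 9.88 and 9.79 in incisors and 8.72, 8.44, 8.47 and 8.88 in molars (difference -1.12, SE 0.13, adjusted p = 0.00488), and *Cdh7* (-0.79) and *Cdh20* (-0.76) passed in the same direction whichever sample was left out. The protocadherin genes *Pcdh10* (1.00) and *Pcdh19* (0.56) were higher in molars, with adjusted p values up to 0.131 and 0.102 with a sample left out. Of 39 growth factor and receptor genes, *Egfr* (difference 0.79, SE 0.09, adjusted p = 0.00551) and *Ntrk3*, a neurotrophin receptor gene (difference 0.73, SE 0.09, adjusted p = 0.0059), were higher in molars whichever sample was left out, and *Nrg3* (0.40) had an adjusted p of up to 0.223. *Gfra1*, a receptor gene for GDNF, was higher in incisors (difference -0.79, SE 0.10, adjusted p = 0.00865), and so was *Gdnf* itself (-0.41), though with an adjusted p of up to 0.246 with a sample left out. *Igfbp4* (-0.35) was the third, with up to 0.157. Of 32 neuropeptides and receptors 3 were higher in molars, among them *Grp* and *Npr3*, a natriuretic peptide receptor gene (difference 0.58, SE 0.08, adjusted p = 0.0111), and 2 in incisors. They included *Nts*, the neurotensin gene, with 5.92, 5.88, 5.43 and 6.51 in incisors and 4.35, 4.44, 4.27 and 4.37 in molars (difference -1.58, SE 0.19, adjusted p = 0.00694). *Sst*, the somatostatin gene, was higher in incisors (-1.29) and its receptor gene *Sstr1* in molars (difference 1.09, SE 0.16, adjusted p = 0.0149). The call of *Sst* was lost without lower incisor 1 or 3 or mandibular molar 1 or 3 (adjusted p up to 0.124).

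**Figure D4:**
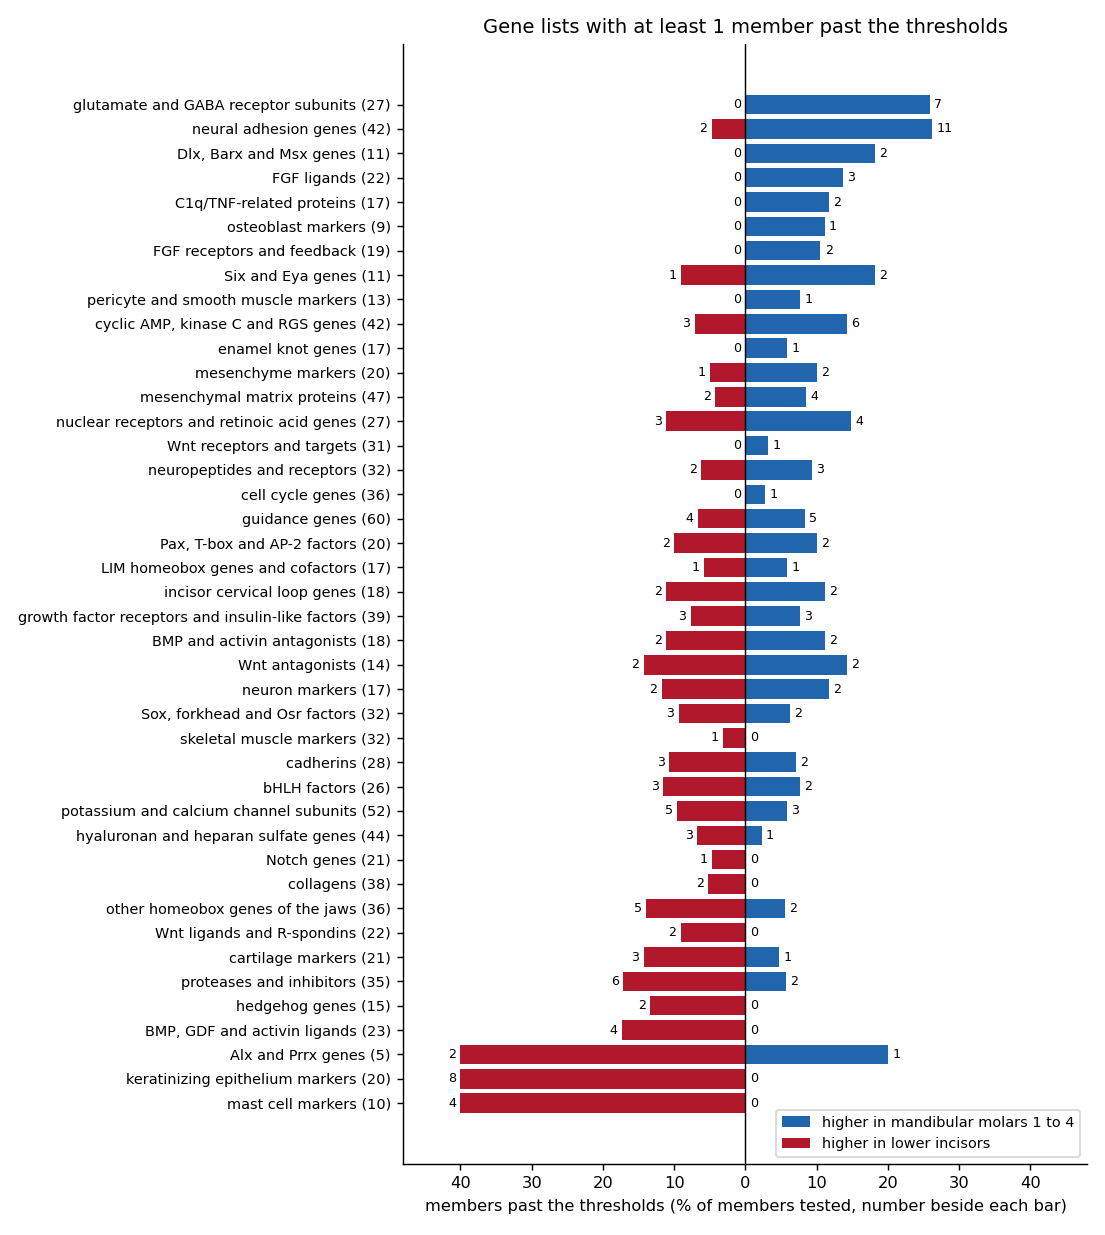
Share of each list's tested members (x axis, %) that passed an adjusted p under 0.1 and a fold change above 1.2, to the right for genes higher in mandibular molars 1 to 4 and to the left for genes higher in lower incisors, with the number of members tested in parentheses and the number that passed beside each bar. Lists with no member past the thresholds are not drawn. Over all genes tested the shares were 1.42% to the right and 1.29% to the left. The lists were chosen with earlier results of these data known, so their order is a description only. Glutamate and GABA receptor subunits (7 and 0) and neural adhesion genes (11 and 2) lie at the top, keratinizing epithelium (0 and 8) and mast cell markers (0 and 4) at the bottom.

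Markers of the tissues that a germ should hold were present in both groups. *Krt14* and *Epcam*, defining markers of the dental epithelium, had means of 11.59 and 9.06 in molars and 11.54 and 8.88 in incisors, and none of 18 epithelium markers tested passed with limma, with 5 higher in molars at an unadjusted p under 0.05. Their summed level, the log2 of the added linear signals, was 14.18 to 14.45 in incisors and 14.21 to 14.78 in molars. Of these 18 markers 17 had a difference above 0, with a median of 0.14 against 0.0013 over all genes. The part of dental epithelium in other differences was not tested. *Prrx1*, *Col1a1* and *Pdgfra* of the mesenchyme did not pass. *Pax9* and *Meox2* (1.04) were higher in molars and *Col3a1* in incisors among 20 mesenchyme markers, and *Meox2* lost its call without lower incisor 1 or mandibular molar 3 (adjusted p up to 0.101). The summed level of the mesenchyme markers was 15.84 to 15.92 in incisors and 15.88 to 15.99 in molars. Endothelial, macrophage, erythroid and Schwann cell and melanocyte markers had no member past the thresholds with limma, of 20, 16, 10 and 13 tested. At an unadjusted p under 0.05 they had 0, 3, 0 and 0 members higher in molars and 2, 0, 1 and 3 higher in incisors.

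Markers of keratinizing epithelium were higher in incisors in 8 of 20 genes tested, against 1.29% of all genes, and in molars in none. Their median difference was -0.54. *Krt1*, a keratin of differentiating epidermis, had 9.48, 9.57, 10.16 and 9.80 in incisors and 8.43, 7.47, 7.71 and 8.22 in molars (difference -1.79, SE 0.23, adjusted p = 0.0095), and *Krt10*, its partner, had 8.95, 8.44, 9.66 and 9.19 and 7.59, 7.50, 7.32 and 7.52 (difference -1.58, SE 0.23, adjusted p = 0.0149). *Sprr3*, a cornified envelope gene, had 7.20, 7.92, 7.93 and 8.70 and 6.22, 5.63, 6.12 and 6.25 (difference -1.88, SE 0.29, adjusted p = 0.0193). *Lor*, the third defining marker of the list, did not pass (-0.22, SE 0.08). The summed level was 11.76 to 12.24 in incisors and 10.91 to 11.36 in molars, so the groups did not overlap, and the count was 5 without mandibular molar 2 or 3 and 4 without both samples numbered 4. Mandibular molars 5 to 8, which were not tested, had 11.19 to 12.02 and maxillary molars 11.16 to 11.83. *Krt* and *Sprr* genes have close copies, whose transcripts a probe set may share. The part of keratinizing epithelium in other differences was not tested.

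The number of cartilage, muscle and mast cell markers that passed varied with the samples included. Of 21 cartilage markers *Matn4* (-1.0), *Col9a1* and *Col9a2* (-0.46) were higher in incisors and *Sox6* (0.55) in molars, and 16 were higher in incisors at an unadjusted p under 0.05. *Acan*, the aggrecan gene, had 9.54, 6.74, 7.79 and 9.61 in incisors and 6.21, 6.23, 5.90 and 6.28 in molars and did not pass (adjusted p = 0.171). Summed levels of the 4 incisors were 13.01, 12.07, 12.18 and 13.04, those of the 4 molars 12.04 to 12.10. Lower incisors 1 and 4 were thus apart from 2 and 3, and the incisor count was 0 without lower incisor 1, 6 without lower incisor 2, 2 without lower incisor 3 or mandibular molar 2 or 3, and 1 without lower incisor 4, mandibular molar 1 or mandibular molar 4. With a sample left out, *Sox6* had an adjusted p of up to 0.262, and the molar count stayed at 1 only without lower incisor 4. Of 32 skeletal muscle markers only the acetylcholine receptor subunit gene *Chrng* passed (-0.65), while 12 were higher in incisors at an unadjusted p under 0.05. Their summed level was 13.77 to 14.04 in incisors, 14.05 in mandibular molar 2 and 13.07 to 13.23 in the other 3 molars. Without mandibular molar 2, 15 of the 32 were higher in incisors, and without lower incisor 2, 3 or 4 or mandibular molar 1, 3 or 4 none were. The part of cartilage and muscle in the differences of other genes was not tested.

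Mast cell markers were higher in incisors in 4 of 10 genes tested, against 1.29% of all genes. *Mcpt2*, a mast cell protease gene, had 7.03, 6.00, 6.48 and 7.80 in incisors and 4.19, 4.48, 4.75 and 4.73 in molars (difference -2.29, SE 0.35, adjusted p = 0.0185), and passed whichever sample was left out, while *Mcpt4*, a close copy, had 6.11, 5.54, 6.25 and 6.72 and 4.97, 4.90, 5.13 and 5.11 (difference -1.13, SE 0.21, adjusted p = 0.0494) and kept its call only without lower incisor 2 or 4. The other 2 were *Cma1* (-0.61) and *Tpsb2* (-0.46), with adjusted p values up to 0.182 and 0.215 with a sample left out. *Cpa3*, the leading defining marker, did not pass (-0.81, SE 0.39). The summed level was 10.45 to 11.22 in incisors and 10.03 to 10.64 in molars, with overlap, and the count was 1 without lower incisor 1 or 3 or mandibular molar 1, 2 or 3, and 2 without lower incisor 4 or mandibular molar 4. The part of mast cells in other differences was not tested. Neuron markers lay on both sides, 2 of 17 in each direction, against 1.42% of all genes in molars and 1.29% in incisors. *Nefl*, the light neurofilament gene, had 8.87, 9.17, 9.23 and 9.30 in molars and 7.06, 8.14, 6.86 and 7.26 in incisors (difference 1.82, SE 0.25, adjusted p = 0.0141), but only 6.17 to 6.70 in maxillary molars, which were not tested. *Nefm* (0.68), its medium partner, had an adjusted p of up to 0.202 with a sample left out. Besides *Isl1*, *Stmn2*, a neuronal microtubule regulator gene, was higher in incisors, with 9.59, 8.31, 9.34 and 9.87 against 7.85, 7.51, 7.40 and 7.45 (difference -1.73). Lower incisor 2 was the lowest of the 4, and its call was lost without lower incisor 1 or 3 or mandibular molar 3 (adjusted p up to 0.119) and without both samples numbered 4 (adjusted p = 0.134). *Tubb3* and *Elavl4*, defining neuron markers, did not pass, with differences of 0.10 and -0.05 (SE 0.14 and 0.07).

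**Figure D5:**
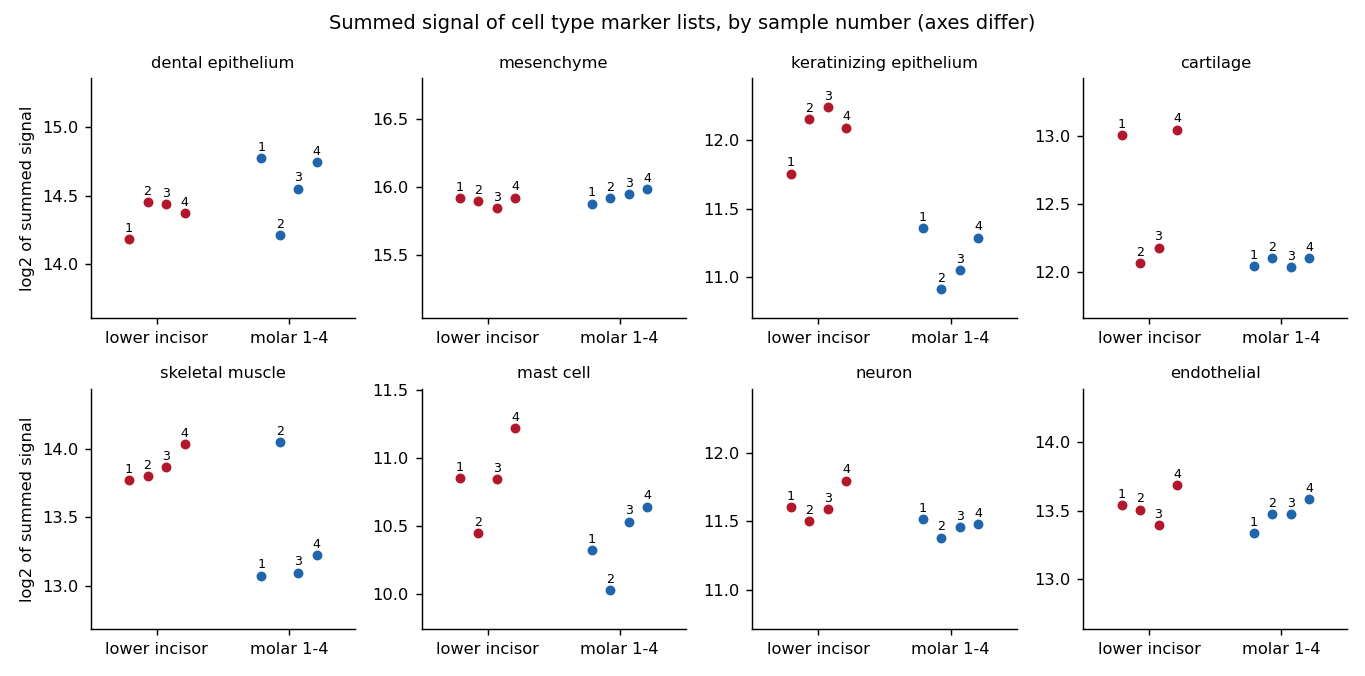
Summed signal of 8 cell type marker lists (y axis, log2 of the added linear signals, axes differ) in lower incisors (red) and mandibular molars 1 to 4 (blue), 1 point per sample labelled with its number. Keratinizing epithelium markers lie higher in every incisor, at 11.76 to 12.24, than in any molar, at 10.91 to 11.36, and cartilage markers lie highest in lower incisors 1 and 4.

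Genes of cell division and of enamel and dentin matrix gave few calls. Of 36 cell cycle genes only *Ccnd2*, which encodes cyclin D2, passed, with 12.06, 12.01, 12.20 and 12.29 in molars and 11.65, 11.70, 11.84 and 11.77 in incisors (difference 0.40), and it kept its call only without mandibular molar 2 (adjusted p up to 0.237). *Pcna* (0.25, SE 0.11) and *Cdk1* (0.20, SE 0.07) did not pass, and the list's median was 0.13. None of 10 enamel and dentin matrix genes passed with limma, against 2 higher in molars and 1 in incisors at an unadjusted p under 0.05, with a median of -0.02 and a difference of 0.15 (SE 0.27) for *Ambn*, the ameloblastin gene. *Rgs5*, the first of 13 pericyte and smooth muscle markers, was the only one of them to pass and was higher in molars (difference 1.05, SE 0.15, adjusted p = 0.0146). *Phex*, an osteoblast and odontoblast endopeptidase gene, was the only one of 9 osteoblast markers tested to pass, with 7.48, 7.62, 7.64 and 8.17 in molars and 6.39, 6.59, 6.50 and 5.83 in incisors (difference 1.40, SE 0.20, adjusted p = 0.0148). *Egr2*, a zinc finger transcription factor gene, had 7.25, 8.49, 8.82 and 8.90 in molars and 6.18, 6.29, 6.14 and 7.01 in incisors (difference 1.96). Mandibular molar 1 was near lower incisor 4, and the call was kept only without lower incisor 4 or mandibular molar 1 (adjusted p up to 0.155). *Vstm2a*, a secreted immunoglobulin domain protein gene, had 8.74, 8.57, 8.89 and 8.99 against 6.32, 7.03, 6.51 and 6.96 (difference 2.09, SE 0.17, adjusted p = 0.000899) and passed whichever sample was left out.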

How the data were processed

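Total RNA of 4 lower incisor and 4 mandibular molar samples was compared, each from a pool of 4 germs. The deposited values were log2 signals per probe set, which the authors computed with RMA (background correction, quantile normalization and summarization) in Affymetrix Expression Console 1.1, as the submitters' processing notes name it. Quantile normalization gives all arrays nearly the same distribution, so shifts common to most genes cannot be seen. The genome build of the array design is not given in the sources used here. The study's methods set 1 incisor sample aside without naming it, for a technical fault at hybridization with high background. All 4 were kept, so incisor means and calls may include that array. Every column of the table was mapped to a sample by its identifier.

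Probe sets above 5 in at least 1 of the 8 samples were fitted with limma 3.58.1 (lmFit and eBayes, R 4.3.3), with p-values adjusted by Benjamini-Hochberg over all 29100. Calls required an adjusted p under 0.1 and, besides, a fold change above 2, lowered to 1.2 for counting the members of 51 gene lists. A gene was represented by its probe set with a single symbol and the highest mean over 16 samples. GEO's platform annotation gave 1 symbol to 21789 probe sets, several to 1621 and none to 12146. Genes named were up to 20 per direction with the largest fold change and no overlap between groups, up to 6 that passed and 3 of highest signal that did not in each list, and the first 3 markers of each cell type. The members and lists were chosen with earlier results of these data known. Cell type levels were sums of linear signals. Promoters were read from RefSeq (GRCm38.p6). Simulated data of the same size were tested at an adjusted p under 0.1 with no limit on the fold change. Of 50 probe sets each changed by 0.5, 1, 1.5 and 2 on the log2 scale, 24, 46, 47 and 49 were recovered, and 21 of 28900 unchanged ones were called. Noise was drawn independently for each probe set and sample, so a shift common to many probe sets, as in the samples numbered 4, was not simulated. The number of arrays limits the precision. 21 alternatives were planned and 1, leaving out both samples numbered 4, was chosen after seeing the data.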

Additional observations from a re-analysis of the deposited data

Results flagged for a closer look

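Of 106 sets of 4 values examined, 4 held a sample far from the other 3, where chance flags about 1 in 20 groups. *Barx1* was at 8.91 in lower incisor 2 and at 7.99 to 8.08 in the other 3 incisors. Mandibular molar 2 was the sample apart in the other three. Its *Alx1* signal was 6.66 against 6.96 to 7.00 in the other molars, its *Isl1* signal 6.08 against 6.38 to 6.39, and its summed skeletal muscle marker level 14.05 against 13.07 to 13.23. Every one of these values lay on the same side of the other tooth type as its group, apart from the muscle level, which reached that of the incisors at 13.77 to 14.04.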

How the results depend on the processing

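At a fold change above 2 the molar count was 68 to 74 and the incisor count 54 to 66 with another signal filter, values under 5 set to 5, a further normalization, array weights, or trended and robust variances. The methods' t-test with Benjamini-Hochberg adjustment gave 53 and 34. At a fold change above 1.2 it gave 159 and 119, while the fit of all tooth types gave 549 and 519, and 1 probe set per gene, tested alone, 437 and 432. Centring on sample medians gave 223 and 156, and leaving out both samples numbered 4 gave 181 and 167. With 1 sample left out, the counts above 2 were 53 to 71 in molars and 41 to 71 in incisors, and those above 1.2 were 162 to 274 and 135 to 228. In incisors the count above 2 was lowest without mandibular molar 1. Of the 119 genes past a fold change of 2, 79 passed an adjusted p under 0.1 and a fold change of 1.2 in all alternatives that measured them. Over the 209 named genes that passed, 576 of 4592 alternative values fell short of the thresholds, and over the 162 that did not pass, 70 of 3563 passed. No named gene that passed changed direction.

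Samples with the same replicate number were not treated as pairs, since no source used here ties a number to a shared litter, batch or day and the correlation of their deviations was not above 0.1 for every number. It was 0.091, 0.106, 0.262 and 0.669 for numbers 1 to 4, all above 0, and the last was the highest of all molar and incisor combinations. Molars 3 and 4 correlated best with the incisor of their own number, while molar 1 did so with incisor 2 (0.222) and molar 2 with incisor 1 (0.413). With the number as a replicate block, 3601 probe sets had an unadjusted p under 0.05 against 2539 without it, and the counts were 73 and 62 above 2, and 295 and 265 above 1.2. What changed the counts was not tested. Probe sets near the filter of 5 have signals close to background, so their fold changes are compressed.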
